A study of Homo sapiens with 4 samples.

Results

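The regions described here are the CTCF peaks that lie near a human centromere. A peak was taken when its summit fell within 5 Mb on either side of the 3 Mb centromere gap of the GRCh37 (hg19) assembly, on chromosomes 1 to 22 and X. This rule used position alone and no measured value. It took 1852 of 33868 peaks over the 4 libraries, which merged into 770 of 13962 regions. No summit lay inside a gap, so all summits are placed in assembled sequence. Whether that sequence, or the fragments placed on it, belongs to the centromere array was not tested.

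A centromere is the stretch of a chromosome on which the kinetochore is built, and in humans it consists of long tandem arrays of alpha satellite DNA. The DNA on either side, the pericentromere, is rich in satellite repeats, segmental duplications and heterochromatin. In GRCh37 the arrays are left as a gap, and few copies of each repeat are placed at its edges, so sequencing fragments from many unplaced copies can be assigned to the few copies that are there. CTCF binds DNA through zinc fingers, halts cohesin on chromatin and marks the anchors of chromatin loops and the borders of topological domains. Aclarubicin and daunorubicin are anthracyclines, planar compounds that slide between DNA base pairs. Daunorubicin, which carries the amino sugar daunosamine, also traps topoisomerase II on cut DNA. Aclarubicin, which carries a trisaccharide chain, is known to act without that cut.

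The data are CTCF chromatin immunoprecipitation sequencing (ChIP-seq) peak lists of K562, an established human erythroleukaemia cell line. Cells were exposed for 4 h to 10 µM aclarubicin or to 10 µM daunorubicin, with 2 biological replicates for each drug. All 4 libraries are drug-treated. Untreated cells were not analysed here, and every comparison therefore sets one drug against the other. K562 has an abnormal karyotype, and the copy number beside each centromere was not analysed here.

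The aclarubicin lists held 10633 and 10711 peaks and the daunorubicin lists 5886 and 6638. Read totals are not given in the lists. Relative depth was recovered from the lowest background of each list and its narrowest peak width, as described under processing. It was 1 and 1.04 in aclarubicin replicates 1 and 2 and 0.997 and 0.814 in daunorubicin replicates 1 and 2. Values are given in the order aclarubicin replicate 1, aclarubicin replicate 2, daunorubicin replicate 1, daunorubicin replicate 2 wherever 4 stand together. With 2 libraries per drug the exact two-sided permutation test cannot go below p = 0.333, so each difference is also set against the spread between replicates.

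Peaks near centromeres were more numerous after aclarubicin than after daunorubicin, in nearly the same proportion as peaks elsewhere. The aclarubicin libraries held 565 and 588 of them and the daunorubicin libraries 326 and 373. The groups did not overlap, and the lower aclarubicin library stood well above the higher daunorubicin library. The mean was 577 ± 16.3 (SD, n = 2) with aclarubicin and 350 ± 33.2 (SD, n = 2) with daunorubicin, a 1.65-fold difference (exact permutation p = 0.333, the smallest possible). Peaks farther from the centromeres differed 1.71-fold. When each list was reduced to its 5886 most significant peaks, the log2 difference in number was -0.094 in place of 0.72. With the totals held equal, the number can differ only as the share does.

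As a share of each list, the peaks near centromeres took 5.31% (95% Wilson interval 4.90 to 5.76) and 5.49% (5.07 to 5.94) with aclarubicin, and 5.54% (4.98 to 6.15) and 5.62% (5.09 to 6.20) with daunorubicin. Both daunorubicin shares were above both aclarubicin shares, by a mean of 0.177 percentage points (pooled SD 0.0968, exact permutation p = 0.333). Without the peaks of 1 stretch on the long arm of chromosome 8, described last, the aclarubicin share less the daunorubicin share went from -0.177 to -0.346 points. That stretch held aclarubicin peaks alone, so leaving it out could only lower the aclarubicin share. With a window of 2 Mb the difference in share was -0.0315. All 4 intervals overlapped, and the intervals cover counting error only and treat peaks as independent. The flank, here the next 5 Mb outward on each side, held 793, 819, 462 and 500 peaks. The number near the gap over the number in the flank was 0.712, 0.718, 0.706 and 0.746, and the drugs overlapped in this ratio (exact permutation p = 1). Benjamini-Hochberg adjustment over the 8 comparisons of the drugs made in this way gave 0.381 for each raw exact permutation p of 0.333 and 1 for this ratio.

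The step next to the gap held the fewest peaks of the 5 Mb in every library. Within 1 Mb of the gap there were 84, 85, 45 and 52 peaks, and between 4 and 5 Mb there were 147, 149, 78 and 88. From 1 to 2 Mb there were 96, 107, 61 and 64, from 2 to 3 Mb 113, 121, 70 and 77, and from 3 to 4 Mb 125, 126, 72 and 92. Both aclarubicin libraries held more peaks than both daunorubicin libraries in each of these 5 steps, in the sum of the arms. Past the edge of the rule there were 184, 198, 108 and 97 peaks from 5 to 6 Mb. The short arms of acrocentric chromosomes carry little assembled sequence near the gap, and its part in the counts of the short-arm side was not tested. The last member inside the rule, on chromosome 17 from 30251097 to 30251373 in aclarubicin replicate 2, lay 8.74 kb within the edge with a fold of 4.46. The first peak outside it, on chromosome 11 from 46639366 to 46639627 in the same library, lay 0.515 kb beyond the edge with a fold of 3.89.

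**Figure D1:**
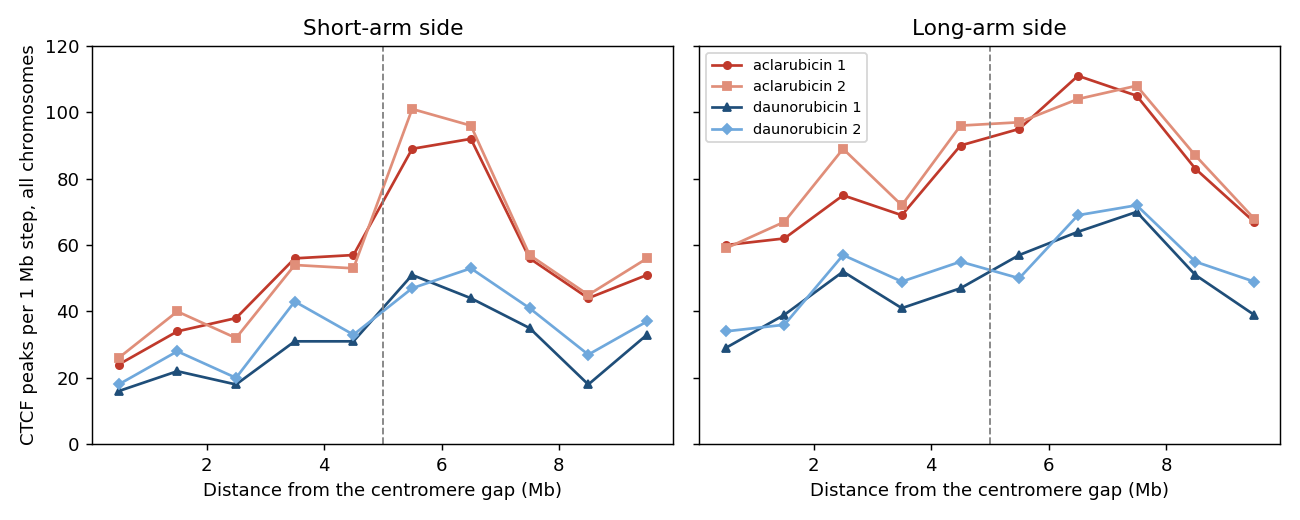
Number of CTCF peaks (y axis) in 1 Mb steps of distance from the centromere gap (x axis, Mb), for the short arm and the long arm, with 1 line per library. Both aclarubicin lines lie above both daunorubicin lines in every step drawn, and the first step, next to the gap, holds the fewest peaks of the 5 steps left of the dashed line in the sum of both arms.

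The peaks were spread unevenly over the chromosome arms. Of the 46 arms that the rule covers, 38 held at least 1 peak. The 8 without a peak were 1q, 9p, 9q, 16q and the short arms of chromosomes 13, 14, 15 and 22. The short arms of acrocentric chromosomes and the blocks beside the gaps of 1q, 9q and 16q are known for large satellite arrays. Chromosome 9 thus gave none of its peaks to this group. How much of the windows of these 8 arms is assembled sequence was not measured, so their lack of peaks does not describe CTCF binding there.

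The long arm of chromosome 22 held the most, with 61 and 66 peaks after aclarubicin and 31 and 28 after daunorubicin. The long arm of chromosome 17 followed with 45, 54, 32 and 31 peaks, and that of chromosome 20 with 47, 45, 21 and 28. In each of these arms both aclarubicin libraries lay above both daunorubicin libraries. With 14q and 16p, these arms held 713 peaks, or 38.5% of those near centromeres. Chromosome 19 held 18, 21, 10 and 11 peaks, and chromosomes 4, 13 and 18 together held 55, 57, 34 and 40.

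Both aclarubicin libraries were above both daunorubicin libraries in 26 of the 38 arms, and the groups overlapped in the other 12. In no arm were both daunorubicin libraries above. The aclarubicin lists were longer as a whole, 1.70-fold over all peaks, and the same count of arms was not made for peaks elsewhere. Among the 28 arms with at least 20 peaks in all, 22 had both aclarubicin libraries higher. The aclarubicin mean over the daunorubicin mean ran in these 28 arms from 0.917-fold to 8.40-fold, with a median of 1.61. The short arm of chromosome 1 held 18, 23, 15 and 23 peaks, that of chromosome 6 held 6, 6, 6 and 7, and that of chromosome 21 held 3, 8, 7 and 5. These 3 arms stood at the low end of the range, with groups that overlapped. The high end was the long arm of chromosome 8, with 24, 18, 3 and 2 peaks.

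**Figure D2:**
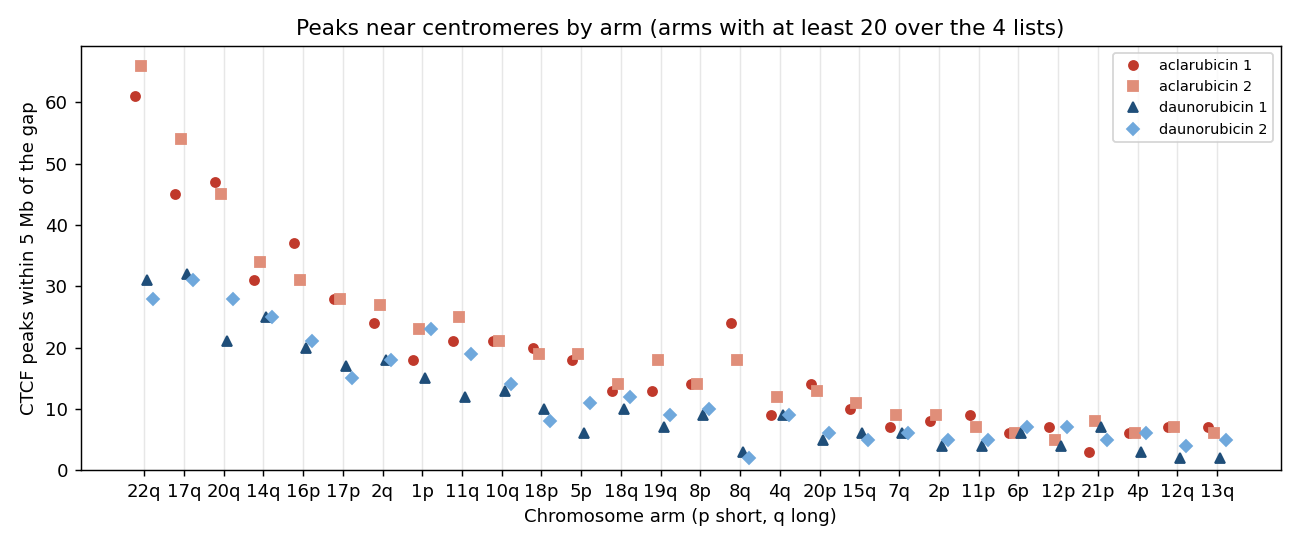
Number of CTCF peaks within 5 Mb of the centromere gap on each chromosome arm that holds at least 20 of them in all, with 1 point per library. The long arm of chromosome 22 holds the most, and on the long arm of chromosome 8 the aclarubicin points (24 and 18) stand far above the daunorubicin points (3 and 2).

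In shape and strength the peaks near centromeres resembled the rest of their lists. Their median width was 365 and 381 bp with aclarubicin and 327 and 326 bp with daunorubicin, against 369, 382, 319 and 328 bp for other peaks. Aclarubicin peaks near centromeres were wider by a mean of 46.3 bp (pooled SD 7.77, exact permutation p = 0.333), and peaks elsewhere were wider by 52.3 bp. In lists of equal length the difference near centromeres was 97.0 bp. The fold is the authors' own value for a peak, its enrichment over background, and it was used to rank peaks within a list. The median fold was 7.60, 7.32, 7.51 and 7.99, with single peaks between 1.89 and 29.4. Their median within-list percentile of fold was 50.6, 48.3, 53.9 and 52.1, higher than that of other peaks in 3 of 4 libraries by a mean of 1.28 points (exact sign-flip permutation p = 0.375, adjusted over 4 such tests 0.75). Without the stretch on the long arm of chromosome 8 the mean difference was 2.20 points. The peaks of that stretch were weak within their lists, so a rise was largely built in. With a window of 2 Mb in place of 5 Mb the mean difference was -1.55.

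Of the peaks near centromeres, 12.4%, 12.6%, 12.3% and 10.5% stood in the top 10% of their list by fold, close to the 10% of all peaks, and the drugs overlapped. In the top 1% their part was larger. They made up 11 of the 107 peaks in the top 1% by fold of aclarubicin replicate 1 (10.3%) and 7 of 108 in replicate 2 (6.48%). In the daunorubicin libraries they made up 9 of 59 (15.3%) and 10 of 67 (14.9%). Each of these 4 shares was above the 5.31% to 5.62% that these peaks took of whole lists, and both daunorubicin shares were above both aclarubicin shares. The numbers themselves, 11, 7, 9 and 10, overlapped between the drugs, and the top 1% of the shorter daunorubicin lists holds fewer peaks. Both limits were chosen with the lists known, and no test was made.

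The local background, the fragment number the peak caller allows at a summit, was less often raised near centromeres. A background of at least 2 times the lowest of its list stood under 68.7%, 68.0%, 58.9% and 60.3% of these peaks and under 71.1%, 71.9%, 65.7% and 66.4% of other peaks. It was lower in 4 of 4 libraries, by a mean of 4.80 percentage points (exact sign-flip permutation p = 0.125, the smallest possible over 4 libraries, adjusted 0.5). The mean difference was -9.19 points with a window of 2 Mb and -8.26 points without the acrocentric chromosomes. Within 1 Mb of the gap the shares were 64.3%, 60.0%, 53.3% and 53.8%. Another peak of the same list lay within 10 kb of 22.1%, 23.0%, 13.5% and 10.5% of the peaks near centromeres, against 21.4%, 21.9%, 14.9% and 14.7% of other peaks (exact sign-flip permutation p = 0.625, adjusted 0.833). Without the stretch on the long arm of chromosome 8 the aclarubicin shares near centromeres were 19.9% and 21.7%, and the peaks near centromeres were then below other peaks in 4 of 4 libraries. The stretch holds many aclarubicin peaks close together and no daunorubicin peak, so a fall of both aclarubicin shares was built in.

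The 770 merged regions were then sorted by the libraries in which they were called. All 4 libraries called 219 of them (28.4%), against 29.5% of all regions. Both aclarubicin replicates and no daunorubicin library called 163 (21.2%, 95% Wilson interval 18.4 to 24.2), against 23.8% of all regions. Both daunorubicin replicates and no aclarubicin library called 26 (3.38%, 2.31 to 4.90), against 3.17% of all regions. These shares are close to the background, and the remaining 362 regions were called in other combinations. In lists cut to equal length, which brings the numbers called with either drug alone together by construction, 11.2% of the regions near centromeres were called with aclarubicin alone and 12.97% with daunorubicin alone.

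In the full lists, which differ in length, sharing between replicates exceeded sharing between drugs for the aclarubicin peaks and not for the daunorubicin peaks. Of the peaks of aclarubicin replicate 1, 81.9% were overlapped in replicate 2, and 78.2% the other way, against 45.7% to 51.0% in the shorter daunorubicin lists. Daunorubicin replicate 2 overlapped 82.5% of the peaks of replicate 1, and 72.4% were overlapped the other way. The longer aclarubicin lists overlapped 78.8% and 83.7% of the peaks of daunorubicin replicate 1 and 74.3% and 80.4% of those of replicate 2. Averaged over both directions and all libraries, the same-drug shares exceeded the different-drug shares by a mean of 15.1 percentage points near centromeres and 16.4 elsewhere. In lists of equal length the excess near centromeres was 18.2 points. Of the 3 possible pairings of libraries, the pairing by drug gave the highest excess both near centromeres and elsewhere (exact share 0.333, the smallest possible). Across the 459 regions that both aclarubicin replicates called near centromeres, their folds had a Spearman correlation of 0.915. Across the 269 called in both daunorubicin replicates it was 0.790. Regions are not independent replicates, so these correlations are descriptions.

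The strongest region near a centromere lay on the long arm of chromosome 7, from 61968781 to 61969624, at 0.919 Mb from the gap. Its folds were 25.6, 26.5, 29.1 and 27.6. The fragments over its summit, solved from the fold and p-value of each peak, numbered 264, 278, 570 and 357. Both daunorubicin libraries were above both aclarubicin libraries here, and in daunorubicin replicate 1 only 1 peak of the whole list had a higher −log10 q. Scaled by the lowest background of each list, daunorubicin carried 1.90 times the fragments of aclarubicin, and the background at the same place stood at 1.81 times. Scaled by the median background of shared regions, the fragment ratio was 2.87. Ratios below are on the first scale unless the other is named, and the second raises them by about the same factor.

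The next regions by within-list fold lay on chromosomes 16 and 17, and they did not share a direction. On chromosome 16 from 33763981 to 33764394, the folds were 26.2, 25.0, 24.9 and 29.4, and the groups overlapped. On chromosome 17 from 18528811 to 18529397 they were 27.8, 25.4, 21.9 and 20.1, and from 20224006 to 20224547 they were 27.1, 26.2, 19.7 and 17.4. Both of these chromosome 17 regions were stronger in both aclarubicin libraries, with fragment ratios of daunorubicin over aclarubicin of 0.437 and 0.310. On chromosome 16 from 31967541 to 31967935, the folds were 19.1, 17.1, 22.7 and 23.8, higher in both daunorubicin libraries, with a ratio of 1.70.

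The strongest region called with each drug alone had lower folds than these regions in the same libraries. For daunorubicin the difference was small, at a mean within-list percentile of 99.2 against 99.4 for the last region above. The strongest called in both aclarubicin replicates alone lay on chromosome 10 from 37177862 to 37178304, with folds of 13.9 and 15.0. The strongest called in both daunorubicin replicates alone lay on chromosome 16 from 32051137 to 32051653, with folds of 16.8 and 17.2, and the next on chromosome 3 from 93968372 to 93968702, with folds of 12.0 and 11.9. A region without a call in a library may still hold fragments there, since the lists give no value below their threshold.

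At the 219 regions called in all 4 libraries the fragments were compared after scaling. With the lowest background as the scale, the ratio of daunorubicin to aclarubicin had a median of 0.670, with quartiles of 0.506 and 0.945 and a range from 0.212 to 1.92. At shared regions elsewhere the median was 0.618. Both aclarubicin libraries were above both daunorubicin libraries at 147 of the 219 (67.1%), against 71.6% of all shared regions. Both daunorubicin libraries were above at 20 (9.13%), against 7.13% of all shared regions, and the groups overlapped at 52.

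Per library, the median log2 fragment number of the shared regions near centromeres relative to those elsewhere was lower in aclarubicin by 0.17 (mean -0.19 with aclarubicin and -0.02 with daunorubicin, exact permutation p = 0.333). This difference does not depend on the depth scale, but the number of regions on each side does. Depth was then taken from the median background of shared regions in place of the lowest, at 1, 1.07, 0.639 and 0.583. This scale comes from the same regions that are compared, so a difference in background common to them is taken into it. On it, daunorubicin was above at 80 of the 219 (36.5%), against 27.6% of all shared regions. Aclarubicin was above at 71 (32.4%), against 41.1%, and the median ratio was 0.995 near centromeres and 0.924 over all. The authors' fold takes no depth scale. Under the assumed formula, which adds 1 to fragments and to background, it still depends on depth where the background is low. By fold, daunorubicin was above at 37 (16.9%), against 13.2%, and aclarubicin at 119 (54.3%), against 56.8%. The median ratio of folds was 0.826 both near centromeres and over all.

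The share of regions with more fragments after daunorubicin was higher next to the gap on the scale of the lowest background, and much less so on the other. Within 1 Mb of the gap they were 6 of 31 shared regions (19.4%), from 1 to 2 Mb 6 of 34 (17.6%), and from 2 to 5 Mb 8 of 154 (5.19%). By the authors' fold, 17 of the 65 shared regions within 2 Mb were higher in both daunorubicin libraries (26.2%), against 12.99% from 2 to 5 Mb. On the scale of the median background the shares were 35.5% within 1 Mb, 41.5% within 2 Mb and 34.4% from 2 to 5 Mb, against 36.5% of the 219 regions. In the flank the share on the first scale was 8.83%, and between 8 and 9 Mb it reached 13.7% of 51 regions, so it did not fall steadily with distance. The 2 Mb limit was chosen after the values were seen.

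The background, on the scale of the lowest of each list, moved with these regions. Over the 219 regions the ratio of the drugs in background had a median of 0.746, against 0.684 at shared regions elsewhere. At the 20 regions higher after daunorubicin it was 1.32, and it was above 1 at 16 of them. Across the 219 regions the fragment ratio and the background ratio had a Spearman correlation of 0.774. Both are solved from the same 2 columns of the same libraries, so they are not separate observations. The part of the background in the fragment ratio was not tested. Nor was the part that a peak's own fragments have in its local background. Of the 20 regions, 17 were also higher in both daunorubicin libraries by fold, against 13.2% of all shared regions. The fold divides the background out but holds the same fragments that picked these regions, so this overlap was in part built in.

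**Figure D3:**
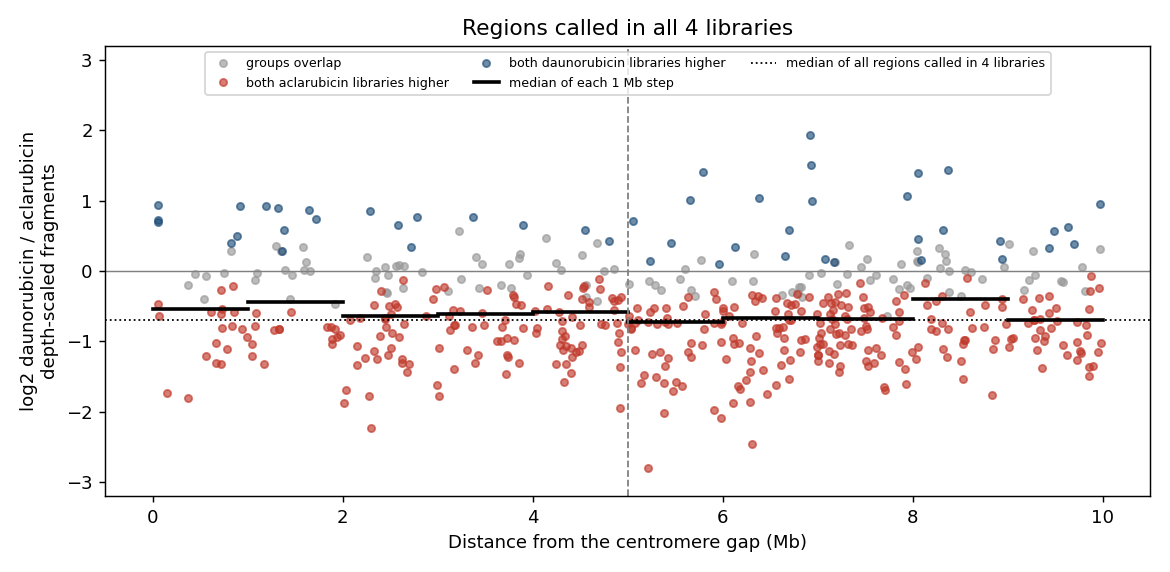
Log2 ratio of daunorubicin to aclarubicin fragments, scaled by the lowest background of each list (y axis), at each region called in all 4 libraries, against its distance from the centromere gap (x axis, Mb, with a dashed line at the 5 Mb edge of the rule). Blue points, with both daunorubicin libraries higher, make up 6 of the 31 regions within 1 Mb (11 on the scale of the median background), and the black bars give the median of each 1 Mb step.

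The peaks closest to a gap that all 4 libraries called were on the short arms of chromosomes 6, 1 and 17. On chromosome 6 a wide peak from 58778123 to 58779443, at 51.7 kb from the gap, held 251, 306, 459 and 342 fragments, a scaled ratio of 1.62. Its folds of 11.9, 12.2, 12.5 and 12.5 lay close together, and its background ratio was 1.57. A narrow peak beside it, from 58776942 to 58777200, held 88, 95, 144 and 124 fragments with folds of 4.18, 3.81, 3.92 and 4.55. On chromosome 6, then, fragments and background were both higher with daunorubicin while the folds differed little.

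On chromosome 1 from 121484733 to 121485330, at 55.0 kb from the gap, there were 57, 63, 123 and 83 fragments. This was the highest ratio of all shared regions near centromeres, 1.92, and the folds of 17.9, 16.9, 22.6 and 20.6 were also higher in both daunorubicin libraries. On chromosome 17 the peaks from 22202652 to 22203464 and from 22193939 to 22194344 had ratios of 0.721 and 0.644. The folds of the first were 9.62, 10.1, 8.65 and 7.20, higher in both aclarubicin libraries, so by fold regions at like distances from a gap did not share a direction.

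At the other end of the range, the region on chromosome 2 from 97625928 to 97626590 held 149, 175, 34 and 27 fragments, a ratio of 0.212. The region on chromosome 22 from 20918445 to 20919113 held 1435, 1471, 333 and 330 fragments, a ratio of 0.260. By −log10 q it was the second peak of the list in aclarubicin replicate 1 and the first in replicate 2, and it ranked 19 and 21 in the daunorubicin lists. Its folds were 19.3, 18.9, 10.8 and 10.98, so the drugs differed here in fold as well as in fragments. The lowest ratio within 1 Mb of a gap was 0.286, on chromosome 4 from 49289958 to 49290386, with 57, 61, 17 and 13 fragments.

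The short arm of chromosome 1 gathered several regions with more scaled fragments after daunorubicin. Within 2 Mb of its gap there were 7, 9, 7 and 12 peaks, and from 2 to 5 Mb there were 11, 14, 8 and 11. The groups overlapped in both stretches. Of the 14 regions within 2 Mb, 5 were called in all 4 libraries, and at 4 of these 5 both daunorubicin libraries held more scaled fragments. Of all shared regions 7.13% did so, or 27.6% on the scale of the median background. Besides the region at 55.0 kb, the region from 120351578 to 120351959 held 34, 22, 55 and 40 fragments, a ratio of 1.89. That from 120218140 to 120218603 held 35, 42, 52 and 72, a ratio of 1.87. Its folds of 9.29, 11.2, 10.7 and 14.5 overlapped between the drugs. The region from 120156410 to 120156778 held 22, 25, 38 and 25 fragments, a ratio of 1.496. The fifth, from 120491199 to 120491713, went the other way with 30, 36, 18 and 11 fragments, a ratio of 0.489.

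Farther out on the same arm lay a run of 4 regions without an aclarubicin call, from 119683631 to 120092590. Over all chromosomes there were 1282 such runs, the longest had 6 regions, and this one shared rank 3 with runs on chromosomes 11 and 5. Both daunorubicin replicates called 2 of its 4 regions. The first of these, from 119683631 to 119684016 with folds of 4.03 and 4.23, began just after a region called in both aclarubicin replicates alone, from 119682738 to 119683458 with folds of 10.1 and 7.82. The second, from 119818081 to 119818369, had folds of 5.85 and 8.03. This stretch was picked out after its values were seen.

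**Figure D4:**
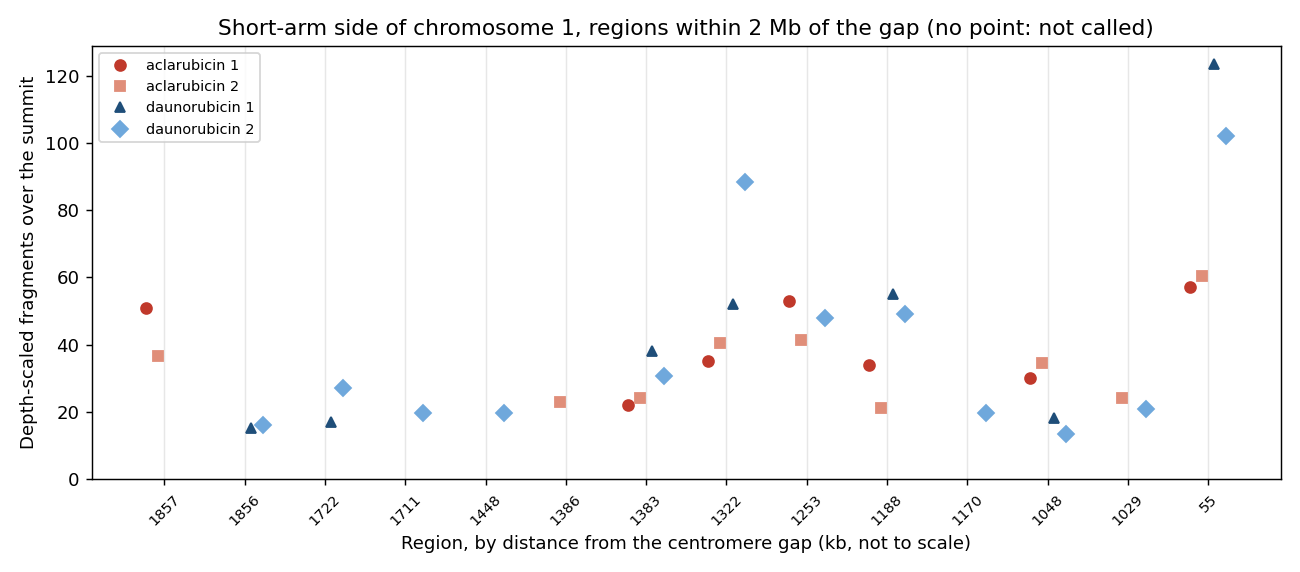
Depth-scaled fragments (y axis) of each CTCF region within 2 Mb of the gap on the short arm of chromosome 1, ordered by distance from the gap (x axis, kb, not to scale), with 1 point per library that called it. At 4 of the 5 regions called in all 4 libraries both daunorubicin points lie above both aclarubicin points.

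The long arm of chromosome 8 differed from the others by the number of regions in a run found with aclarubicin alone. From 47003780 to 47353326, a stretch of 350 kb at 164 to 513 kb from the gap, there were 24 regions, with 22 peaks in aclarubicin replicate 1 and 16 in replicate 2. Neither daunorubicin library had a peak there, and 14 of the 24 regions were called in both aclarubicin replicates. With 1 further region on the short arm it formed the longest of the 3323 runs of regions without a daunorubicin call, 25 regions against 12 in the next longest. No daunorubicin peak separated it from the gap. Another run without a daunorubicin call, on chromosome 10 with 11 regions that all lay near the centromere, shared rank 4 with a run on chromosome 16. The chromosome 10 run spanned 7636 kb and had regions on both sides of the gap.

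The peaks of this run were weak within their lists. Their folds had a median of 4.90 (range 3.53 to 8.54) in aclarubicin replicate 1 and 5.12 (4.17 to 6.79) in replicate 2, at median within-list percentiles of 19.0 and 22.3. The median fragment number was 35.5 and 40.5. The background was 3.86 times the lowest of the list in both replicates, against list medians of 3.23 and 3.22. In lists of equal length 4 and 3 of the 22 and 16 peaks were left. At a −log10 q of at least 10, 15 and 15 were left. The regions from 47336097 to 47336459, with folds of 6.23 and 6.79, and from 47314965 to 47315691, with folds of 8.54 and 5.76, were the highest called in both replicates. They were chosen after their values were seen.

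At 989 kb from the same gap, the next region outward was called in all 4 libraries, with folds of 14.6, 12.2, 10.0 and 13.9. The groups overlapped there. A region called in both daunorubicin replicates alone followed at 1029 kb, with folds of 6.67 and 6.54. Of the peaks of the long arm of chromosome 8, then, those of the run account for 22 of 24 in aclarubicin replicate 1 and 16 of 18 in replicate 2. The numbers of fragments that daunorubicin libraries hold in the run are not known from peak lists, and copy number, mappability and depth there were not tested.

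**Figure D5:**
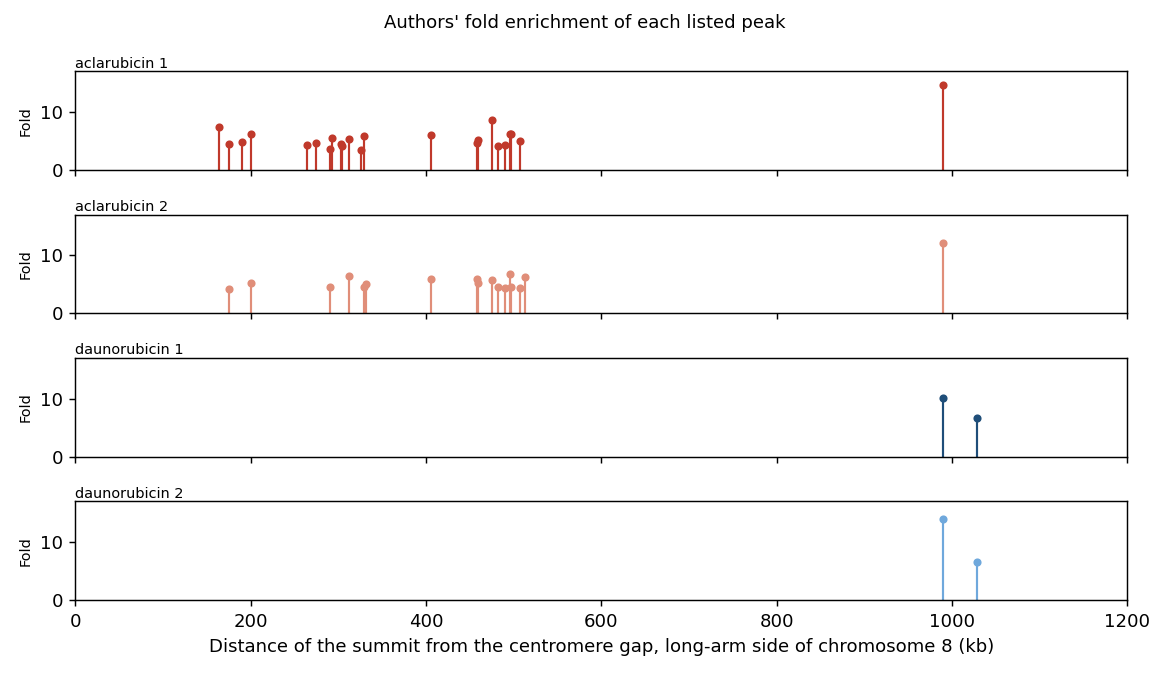
Fold of each CTCF peak (y axis) against distance from the centromere gap (x axis, kb) on the long arm of chromosome 8, with 1 panel per library and 1 stem per peak. The aclarubicin peaks of the run lie between 164 and 513 kb at folds of 3.53 to 8.54, without a daunorubicin peak, and the region at 989 kb has a peak in all 4 libraries. The last pair of daunorubicin points, at 1029 kb, has no aclarubicin peak.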

How the data were processed

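CTCF ChIP-seq peak lists of 4 K562 libraries, 2 per drug, were used. The labels say that replicates are biological, not whether they came from separate cultures on separate days. Bowtie2, Picard, bedtools and the build GRCh37 (hg19) are named per the submitters' processing notes, with no roles. The peak caller, its threshold and any control library are not given in the sources used here. The deposited lists hold the peaks of 1 library each. Per the format of the deposited files, each peak has a score, a fold enrichment ratio over its background, a −log10 p, a −log10 q and a summit offset, all as the authors made them. The lowest deposited −log10 q lay between 2.02 and 2.21.

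The members and lists were chosen with earlier results of these data known. Distance was measured from the summit to the nearer edge of the gap, whose starts were entered by hand. Regions were merged over the 4 lists (1 bp of overlap). Fragments k and background λ were solved from fold = (k + 1)/(λ + 1) and a Poisson tail for p, a formula assumed from the format. In each list 100% of the k solved were within 0.02 of a whole number. Relative depth, used for the scale of the lowest background, came from the lowest λ of each list divided by the width of its narrowest peak. It is an estimate, and the depth in reads is unknown.

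Values per library were compared with exact two-sided permutation tests, between drugs over libraries and between members and other peaks by flipping signs over 4 libraries. Smallest possible p-values are 0.333 and 0.125. Wilson intervals (95%) cover counting error only. Regions named were the 5 strongest by mean within-list fold percentile in each class, the 5 highest and lowest ratios and the 5 shared regions nearest a gap, of which the text gives some. Other regions were chosen after their values were seen. Alternatives were thresholds on q and fold, equal list lengths, other windows, another overlap, another depth scale, each replicate left out and a replicate block. The computations were tested on simulated data. Python 3.11.15, numpy 2.4.6, pandas 2.3.3, scipy 1.17.1, matplotlib 3.10.9 and bedtools 2.31.1 were used. Genes and motifs at the peaks were not analysed here, since no genome of the files' build was used.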

Additional observations from a re-analysis of the deposited data

Results flagged for a closer look

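The share of peaks that had a neighbour in their own list no more than 10 kb away moved in opposite directions in the libraries of each drug. Near centromeres it was above that of other peaks by 0.729 and 1.04 percentage points in the aclarubicin libraries, and the difference was -1.36 and -4.29 points in the daunorubicin libraries. The drugs differed in this by 3.71 points (exact permutation p = 0.333, the smallest possible with 2 libraries per drug). Without the peaks of the stretch on the long arm of chromosome 8, a choice made after seeing the data, the aclarubicin values were -1.51 and -0.242 points, so all 4 libraries then lay on the same side. Their fall was built in, since the stretch holds aclarubicin peaks close together and no daunorubicin peak.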

How the results depend on the processing

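Of 133 alternative values, 4 reversed, 17 region shares moved beyond their interval and 112 did neither, which for differences and ratios says only that the direction was kept. Their sizes ranged from 38.5 to 97.0 bp in width, from -0.348 to -0.0315 points in share and from -9.19 to -3.78 points in raised background, and the fold percentile reached 3.47 points without the acrocentric chromosomes. In lists of equal length the log2 difference in peak number was -0.094, the regions called in all 4 libraries were 33.7%, those with aclarubicin alone 11.2% and those with daunorubicin alone 12.97%. With a −log10 q of at least 10 the first and second of these classes held 32.7% and 26.8%, and with a fold of at least 5 the first held 33.3%. The log2 difference of the drugs in peaks near the gap over flank peaks (-0.021) was 0.031 with a fold of at least 5, and from -0.061 to 0.019 with each library left out, positive without daunorubicin replicate 2. It was -0.069 without the stretch on the long arm of chromosome 8. With peaks within 10 kb counted as 1 cluster it was -0.057. In both of these settings the drugs did not overlap (exact permutation p = 0.333). The fold percentile of members relative to other peaks was -1.55 with a window of 2 Mb. Leaving out each library gave 32.7% to 35.6% of regions called in all remaining libraries, 25.5% to 37.3% with aclarubicin alone and 4.55% to 8.37% with daunorubicin alone, where fewer libraries enter each class. The median fragment ratio of 0.670 ran from 0.605 to 0.995. Replicate differences of the drugs had a correlation of 0.01 over the 219 shared regions near centromeres and -0.08 over all 4122, so the numbers do not pair the libraries. A replicate block put the log2 difference in number at 0.73 and the fragment ratio 0.668, with no change of direction, and the exact p over 2 pairs cannot go below 0.5. Leaving out each library put the difference in share between -0.265 and -0.0892 points and the difference in fold percentile between 0.317 and 2.30. Leaving out the stretch on the long arm of chromosome 8, chosen after seeing the data, turned the neighbour difference of both aclarubicin libraries and none of the other directions recomputed, and regions called with aclarubicin alone were then 19.97%. These shifts follow in part from the choice, since the stretch holds aclarubicin peaks alone. Depth limits what the lists show, since a peak under the threshold has no value, and no exact test over 2 libraries per drug could pass 0.05.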
